A study of Homo sapiens with 30 samples.

Results

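RNA polymerase I machinery is described here by 10 of the 21112 genes measured in diffuse large B-cell lymphoma (DLBCL) cell lines treated with AZD8186, an inhibitor of the PI3K isoforms β and δ. The genes were chosen by their exact symbols and by no threshold on a measured value, but with earlier results of these data known. They are the polymerase subunits POLR1A, POLR1B, POLR1C, POLR1D and POLR1E, the initiation factor RRN3, the DNA-binding factor UBTF, and TAF1B, TAF1C and TAF1D of the promoter selectivity factor SL1. RNA polymerase I transcribes one kind of gene, the repeated ribosomal DNA of the nucleolus, and its product is cut into most of the RNA of the ribosome. UBTF and SL1 assemble on the ribosomal DNA promoter, and RRN3 couples the polymerase to SL1. In lymphoma and other growing cells the rate of this transcription follows growth signals, among them PI3K, mTOR and MYC.

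The series holds 30 RNA-sequencing libraries. OCI-Ly10 and TMD8 are established lines of the activated B-cell-like (ABC) subtype, and HT and K422 are lines of the germinal center B-cell-like (GCB) subtype. Cells of each line received AZD8186 at 0.5 µM or the solvent DMSO, and RNA was taken after 6, 12, 18 and 24 h, except that TMD8 has no 12 h libraries. The sample labels name DMSO as the control, although the series is elsewhere described as having untreated controls. Every line, treatment and time was sequenced from 1 library, so AZD8186 and DMSO libraries of equal line and time form 7 ABC pairs and 8 GCB pairs, and the times stand in for replicates. P-values therefore cover variation among single libraries, part of which may be technical. With 2 lines per subtype, a difference between subtypes cannot be told apart from one between lines.

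Library totals ranged from 15820230 to 23579029 expected counts, and each of the 10 genes had 149 to 8553 expected counts in every library. The B-cell markers MS4A1, CD79A, CD79B and PAX5 were present in every line, the least abundant being MS4A1 in HT at 5.48 to 16.2 TPM, a level scaled by transcript length and library. K422 also held CD3D at 61.6 to 87.3 TPM, CD3G at 82.1 to 116 TPM and the stromal marker DCN at 98.1 to 187 TPM, whereas CD2, COL1A1, COL1A2 and PDGFRB were at 0 TPM in its 8 libraries and CD3E did not exceed 1.65 TPM. The summed T-cell markers of K422 were at 162 to 184 TPM in DMSO and 167 to 182 TPM under AZD8186. Its summed stromal markers, carried by DCN, were at 98.1 to 127 TPM in DMSO and 154 to 187 TPM under AZD8186. Their part in the K422 results was not tested. The median share of ribosomal protein genes was 19.1% in ABC DMSO libraries and 23.9% under AZD8186, and 14.5% and 16.9% in GCB libraries.

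By the GENCODE 29 annotation of GRCh38, POLR1A (chr2:86020216-86106155, minus strand), POLR1B (chr2:112541915-112577150, plus) and TAF1B (chr2:9843354-9934416, plus) lie on the same chromosome, as do RRN3 (chr16:15060022-15094317, minus) and TAF1C (chr16:84177847-84187070, minus). The other 5 genes are POLR1C (chr6:43509702-43562419, plus), POLR1D (chr13:27620742-27744237, plus), POLR1E (chr9:37485935-37503697, plus), TAF1D (chr11:93729948-93784391, minus) and UBTF (chr17:44205033-44221626, minus). Values are sums over all transcripts of a gene, from 1 for POLR1A to 7 for POLR1B and TAF1C.

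In DMSO the 10 genes spanned a wide range of levels. Averaged over the line means, POLR1D was highest at 125 TPM, followed by UBTF at 73.9, POLR1C at 66.0 and POLR1E at 53.2 TPM. TAF1D stood at 27.0, POLR1B at 18.4, POLR1A at 16.1, RRN3 at 15, TAF1B at 10.1 and TAF1C at 7.44 TPM. Over the 10203 genes kept by the low-count filter in both subtypes the median was 13 TPM. POLR1D lay above 91.3% of those genes and TAF1C above 35.9%. POLR1C and POLR1D form the pair that RNA polymerases I and III share, and they ranked above POLR1A and POLR1B, the largest subunits that carry the active site and occur in RNA polymerase I alone. The length scaling of TPM allows such comparisons between genes.

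**Figure D1:**
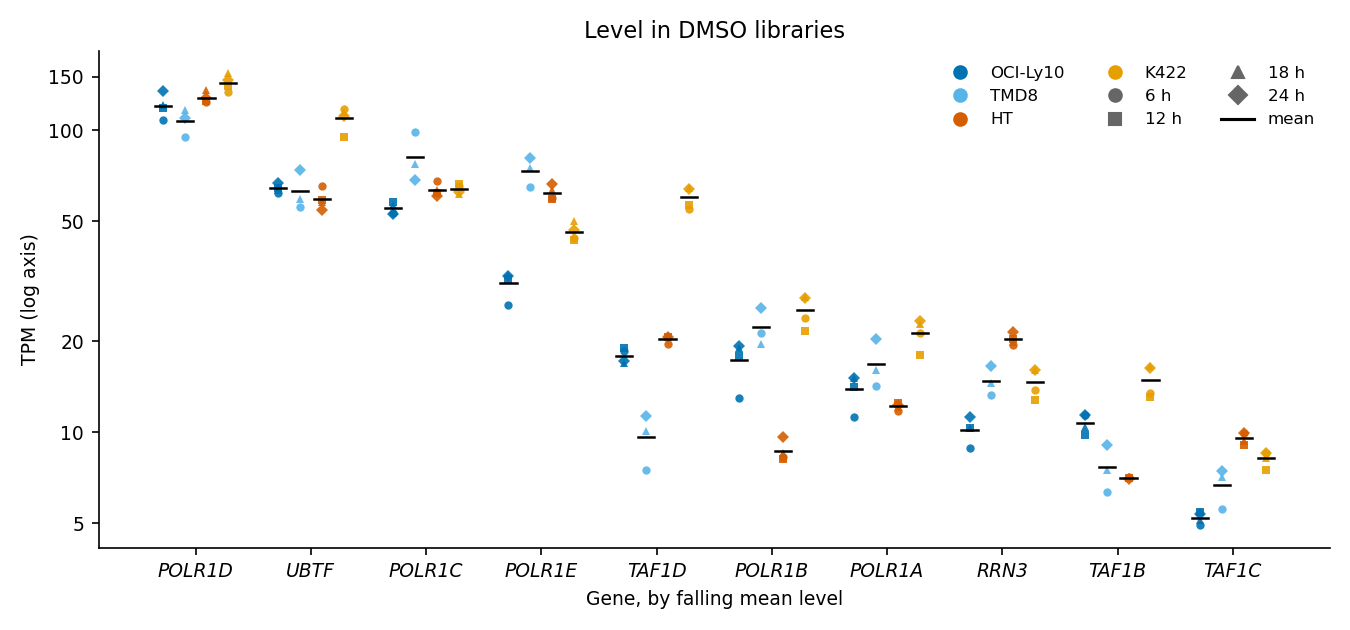
Level of the 10 genes in DMSO (TPM, log axis), with 1 point per library, coloured by cell line. POLR1D lies highest and TAF1C lowest on average, and the TAF1D points of K422 stand far above those of TMD8.

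Several neighbours in this order did not differ beyond their spread. The ranges over the DMSO libraries of POLR1C and POLR1E overlapped in HT and TMD8, and those of POLR1B and POLR1A overlapped in K422, OCI-Ly10 and TMD8. In TMD8 the 4 most abundant genes formed an unbroken chain of overlapping ranges from POLR1D through POLR1C and POLR1E to UBTF. In K422 the ranges of POLR1D and UBTF did not overlap with each other or with those of any other member.

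The level that differed most between lines was that of TAF1D, a small SL1 subunit. It stood at 59.8 ± 4.98 TPM in K422 (SD, n = 4 times), 20.4 ± 0.594 in HT (n = 4), 17.9 ± 1.04 in OCI-Ly10 (n = 4) and 9.66 ± 1.97 in TMD8 (n = 3), a span of 6.20-fold. POLR1B spanned 2.93-fold, from 8.66 ± 0.679 TPM in HT to 25.4 ± 3.14 in K422, with 17.3 ± 2.90 in OCI-Ly10 and 22.2 ± 3.14 in TMD8. The gene for POLR1E, a subunit that resembles a part of the RNA polymerase II factor TFIIF, spanned 2.35-fold, at 73.4 ± 7.88 TPM in TMD8, 62.1 ± 3.45 in HT, 46.0 ± 3.19 in K422 and 31.2 ± 3.20 in OCI-Ly10. By mean TPM K422 was the highest line for TAF1D and TMD8 for POLR1E. The POLR1E ranges of TMD8 (64.9 to 80.5 TPM) and HT (59.05 to 66.3 TPM) overlapped, as did the POLR1B ranges of K422 and TMD8.

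TAF1B, the SL1 subunit related to the RNA polymerase II factor TFIIB, spanned 2.10-fold, from 7.08 ± 0.0374 TPM in HT to 14.9 ± 1.87 in K422. RRN3 spanned 1.99-fold and was highest in HT at 20.3 ± 0.862 TPM and lowest in OCI-Ly10 at 10.2 ± 0.983 TPM. UBTF, which bends ribosomal DNA and keeps it open for transcription, was at 109 ± 10.1 TPM in K422 and at 59.0 ± 4.47 to 64.2 ± 2.09 TPM in the other 3 lines. POLR1A ranged from 12.2 ± 0.309 TPM in HT to 21.3 ± 2.40 in K422, and TAF1C from 5.23 ± 0.235 TPM in OCI-Ly10 to 9.59 ± 0.427 in HT. In TPM the pair shared with RNA polymerase III had the smallest spans, with POLR1C spanning 1.48-fold (55.2 ± 2.50 TPM in OCI-Ly10 to 81.4 ± 15.4 in TMD8) and POLR1D 1.34-fold (107 ± 11 TPM in TMD8 to 144 ± 8.72 in K422). By counts POLR1C differed more, with a log2 difference of −0.87 between K422 and TMD8.

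The counts of the 15 DMSO libraries were compared between lines with edgeR's quasi-likelihood test, calling genes at an adjusted p under 0.05. TMD8 differed from OCI-Ly10 in 9 of the 10 genes, 6 higher and 3 lower, where 69.3% of all genes tested were called. HT differed from OCI-Ly10 in 8 (80.6% of all genes), K422 from OCI-Ly10 in 7 (80.9%), HT from TMD8 in 10 (76.4%), K422 from TMD8 in 7 (77.1%) and K422 from HT in 8 (68.0%). These shares are near those of all genes, so the members did not stand apart from the background in how often they differed. The largest differences were TAF1D in K422 above TMD8 (log2 difference 2.14, adjusted p = 2.66e-12) and POLR1B in HT below TMD8 (log2 difference −1.61). POLR1E was higher in TMD8 than in OCI-Ly10 by 1.24 and lower in K422 than in TMD8, with a log2 difference of −1.09.

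On the log2(TPM + 1) scale the median of all genes was itself above 0 in some of these contrasts, by 0.41 for K422 against OCI-Ly10, 0.38 for K422 against TMD8, 0.27 for HT against OCI-Ly10 and 0.25 for HT against TMD8. Between the scales, 10 differences called on either of them changed sign. Of these, 6 were called from the counts (3 of POLR1D and 1 each of POLR1B, POLR1C and RRN3) and 4 only on log2(TPM + 1). Differences called on neither scale changed sign for TAF1D in HT against OCI-Ly10 (−0.11 by counts, 0.18 on log2(TPM + 1)) and POLR1C in K422 against HT (−0.15 and 0.011). After the median of all genes was subtracted, POLR1D was still above 0 for HT against TMD8 (0.024) and K422 against TMD8 (0.050). POLR1B in K422 against TMD8 was at −0.22 by counts (adjusted p = 0.0383) and at 0.21 on log2(TPM + 1), or −0.17 after the median was subtracted. The order of the lines for POLR1D, and that of K422 and TMD8 for POLR1B, thus depends on the scale. The TAF1D and POLR1E differences named above and that of POLR1B between HT and TMD8 did not change direction.

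AZD8186 treatment lowered most of the machinery in the GCB lines. Of the 10 genes, 7 were lower under AZD8186 and 2 higher, where 23.5% of all genes tested were lower and 25.9% higher, and TAF1B was not past the test. POLR1B fell most, with POLR1C and POLR1A next, and the initiation factor RRN3 and POLR1E fell too, and UBTF and TAF1C passed the test narrowly. POLR1D and TAF1D rose. The median log2 change of the 10 genes was −0.23, beside 0.025 over all genes tested in the GCB lines.

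**Figure D2:**
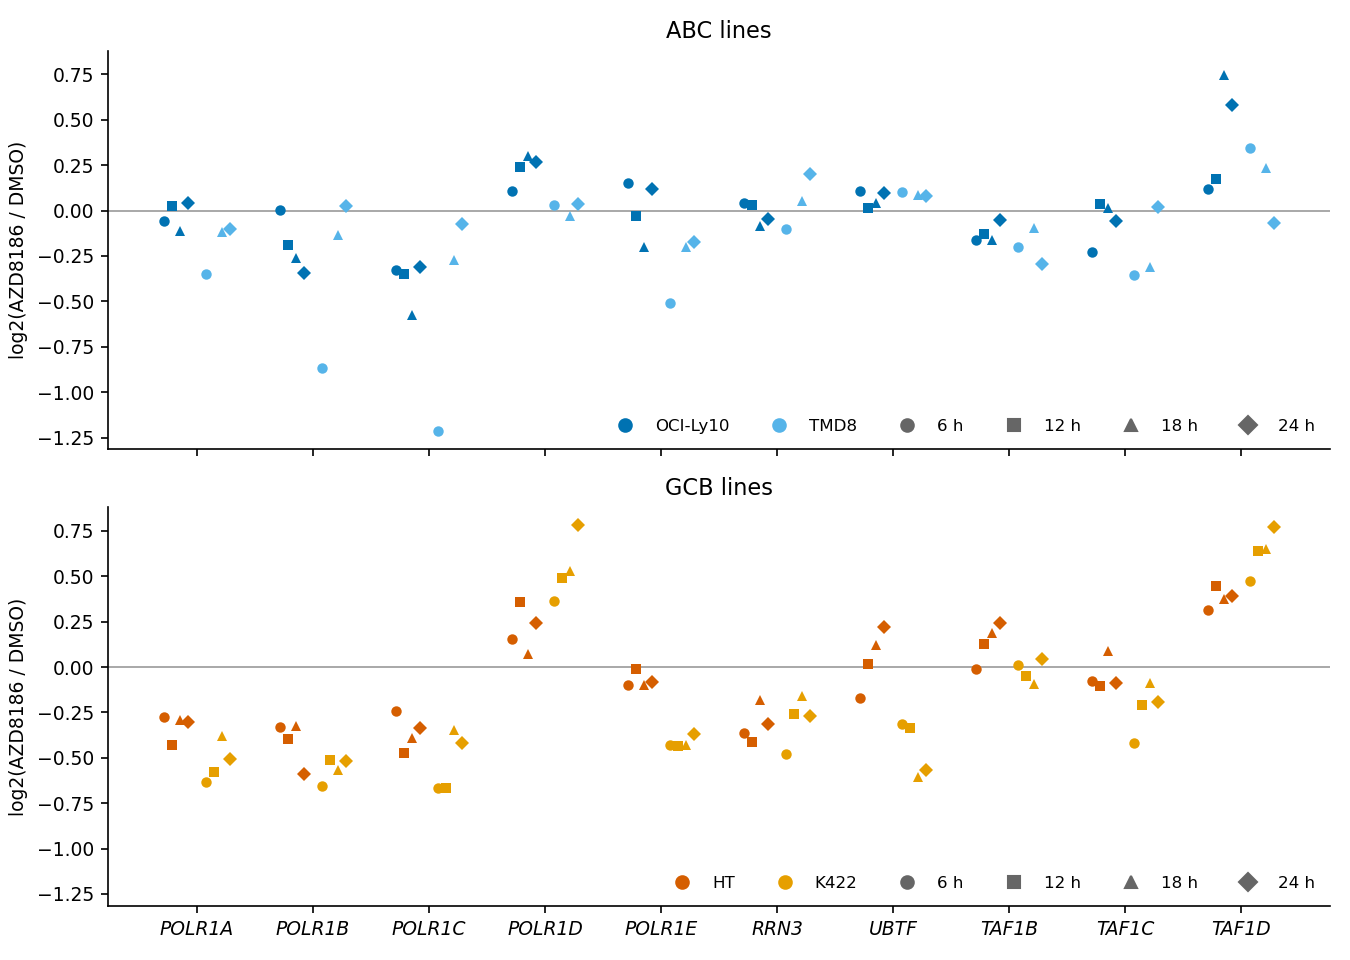
Log2 ratio of AZD8186 to DMSO (from CPM) for each of the 10 genes, with 1 point per pair of libraries, grouped by cell line. POLR1A and POLR1B lie below 0 in all 8 GCB pairs and TAF1D lies above 0 in all 8, and the TMD8 pair at 6 h lies far below the other TMD8 pairs for POLR1B and POLR1C.

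POLR1A encodes the largest subunit of the enzyme and, with POLR1B, forms its catalytic core. CPM values (counts scaled to the library by TMM) of POLR1A in K422 at 6, 12, 18 and 24 h were 197, 169, 194 and 195 in DMSO and 127, 113, 149 and 137 under AZD8186. In HT they were 117, 122, 121 and 115 in DMSO and 96.5, 90.3, 99.0 and 93.6 under AZD8186. The treated and control libraries did not overlap in either line, and the log2 change over the GCB pairs was −0.43 (SE 0.051, n = 8 pairs, adjusted p = 1e-05, edgeR). In K422, POLR1B was at 86.2, 79.6, 93.3 and 90.7 CPM in DMSO and at 54.8, 55.7, 62.8 and 63.2 CPM under AZD8186. HT held 32.9, 31.2, 33.7 and 35.6 CPM of POLR1B in DMSO and 26.1, 23.7, 26.8 and 23.7 CPM under AZD8186. Every treated library was below every control of its line, with ratios from −0.65 to −0.33 on the log2 scale.

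POLR1C and POLR1D form a dimer on which both RNA polymerase I and RNA polymerase III assemble, and variants in either gene cause Treacher Collins syndrome. Their RNAs moved in opposite directions. POLR1C in K422 was at 48.7, 51.8, 43.2 and 43.1 CPM in DMSO and 30.7, 32.6, 33.9 and 32.2 CPM under AZD8186, without overlap. In HT the values were 56.4, 51.3, 52.1 and 47.7 CPM against 47.6, 36.9, 39.7 and 37.8 CPM, where the highest treated library lay just below the lowest control. The log2 change of POLR1C in the GCB lines was −0.45 (SE 0.058, adjusted p = 2.4e-05). POLR1C shares 6.27% of its exonic bases with XPO5 on the opposite strand, and TAF1C 8.07% with DNAAF1, so their counts are uncertain if reads were counted without strand. POLR1D rose by 0.37 (SE 0.062, adjusted p = 0.000234), from 95.0, 97.9, 94.7 and 92.0 to 122, 138, 137 and 158 CPM in K422 and from 85.3, 84.6, 90.3 and 87.0 to 94.9, 108, 94.9 and 103 CPM in HT. Neither line showed overlap for POLR1D, and the K422 ratios were the larger, from 0.36 at 6 h to 0.78 at 24 h.

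POLR1E works in a dimer with CD3EAP, and RRN3, also called TIF-IA, is the factor that marks the polymerase molecules able to initiate. POLR1E in K422 was at 52.1, 52.8, 55.1 and 50.3 CPM in DMSO and 38.6, 39.1, 40.8 and 38.9 CPM under AZD8186. HT showed a smaller difference in POLR1E, from 76.3, 74.0, 80.7 and 79.8 CPM in DMSO to 71.1, 73.5, 75.3 and 75.2 CPM. The groups were apart in K422 and overlapped in HT, and the GCB change was −0.25 (SE 0.057, adjusted p = 0.00203). RRN3 was at 54.4, 55.8, 55.7 and 56.6 CPM in HT with DMSO and 42.3, 42.0, 49.1 and 45.5 CPM under AZD8186, and at 35.98, 33.9, 38.7 and 37.9 CPM against 25.8, 28.3, 34.6 and 31.4 CPM in K422. Here HT was the line without overlap, while the 18 h treated library of K422 exceeded its 12 h control. The change of RRN3 was −0.31 (SE 0.044, adjusted p = 4.85e-05). The pseudogenes RRN3P1, RRN3P2 and RRN3P3 resemble RRN3 and held up to 15.6, 39.6 and 87.2 expected counts per library against 445 to 1189 for RRN3, so the split of reads among them is uncertain.

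UBTF and the SL1 subunits, which sit on the ribosomal DNA promoter, did not move as a block. UBTF was at 385, 319, 349 and 331 CPM in K422 with DMSO and at 310, 253, 229 and 223 CPM under AZD8186, without overlap. HT gave 231, 203, 205 and 182 CPM in DMSO and 205, 206, 222 and 212 CPM under AZD8186, with log2 ratios from −0.17 at 6 h to 0.22 at 24 h and full overlap. The GCB change of UBTF (−0.21, SE 0.084, adjusted p = 0.0497) lay in K422 and was not called with the pair as a block (adjusted p = 0.0756) or without any single K422 pair (adjusted p = 0.0915 to 0.167). TAF1C, an SL1 subunit that contacts RRN3, was at 22.7, 20.4, 20.01 and 20.5 CPM in K422 with DMSO and 17.0, 17.6, 18.9 and 17.9 CPM under AZD8186. In HT the TAF1C groups overlapped, and the GCB change of −0.14 (SE 0.054, adjusted p = 0.0391) was likewise lost with the block (adjusted p = 0.0562) and without any of 7 single pairs (up to 0.119).

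TAF1D was the member with the largest rise. Its level went from 49.9, 54.3, 54.8 and 53.0 CPM to 69.3, 84.6, 86.0 and 90.3 CPM in K422 and from 20.3, 21.4, 22.1 and 20.8 CPM to 25.3, 29.3, 28.7 and 27.3 CPM in HT. All 8 treated libraries lay above all controls of their line, and the log2 change was 0.51 (SE 0.052, adjusted p = 3.46e-06). TAF1B was at 20.4, 20.1, 23.1 and 22.3 CPM in K422 with DMSO and 20.5, 19.4, 21.6 and 23.0 CPM under AZD8186, and at 11.5, 11.2, 11.4 and 10.7 CPM against 11.4, 12.3, 13.0 and 12.7 CPM in HT. Its groups overlapped in both lines and its log2 change was 0.04 (SE 0.055, adjusted p = 0.537).

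The promoters of these genes are shown because members that fell and members that rose had a motif in common. RefSeq starts on GRCh38.p14 were found for 9 of the 10 genes, all but POLR1E, and the 250 bases before each start were searched on both strands. CACGTG, the E-box bound by MYC and related factors, was in none of the 9 genes, beside 7.73% of 27305 genes. CCGGAAG or its reverse complement CTTCCGG, a core that ETS-family factors recognise, was in 5 of the 9 genes, beside 10.2% of the 27305. This motif was chosen after the promoters had been looked at. The match nearest to the start lay 42 bases before it in POLR1B (chr2:112542412-112542440, plus strand), 124 in POLR1C (chr6:43516954-43516982, plus strand), 37 in RRN3 (chr16:15094292-15094320, minus strand), 17 in TAF1B (chr2:9843446-9843473, plus strand) and 65 in TAF1D (chr11:93741543-93741571, minus strand). The windows follow 5′ to 3′ on the strand of the gene, with the motif in capitals.
POLR1B: tgcggccactaCTTCCGGcgtgtaccgag
POLR1C: aaaagcaacttCCGGAAGctggggacgtg
RRN3: ggcacgcgcaaCTTCCGGgacagaggctg
TAF1B: cgcgtttccggCCGGAAGcttctccagc
TAF1D: tcgccttcttcCCGGAAGctaagttgtat
POLR1B, POLR1C and RRN3 fell in the GCB lines, TAF1D rose and TAF1B was not past the test, so the genes with the match did not share a direction. A match describes these letters and is no shown binding site.

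The ABC lines showed less change. AZD8186 treatment lowered 1 of the 10 genes, POLR1C, where 13.8% of all genes tested were lower, and raised 1, TAF1D, where 15.3% were higher. The other 8 were not past the test. An unadjusted p under 0.05 was found for 4 of the 10, and for 4619 of all 11419 genes tested. The median log2 change was −0.11, beside 0.0072 over all genes. POLR1C in OCI-Ly10 was at 59.7, 58.1, 55.5 and 48.3 CPM in DMSO and at 47.6, 45.5, 37.2 and 38.9 CPM under AZD8186, without overlap. In TMD8 at 6, 18 and 24 h, POLR1C was at 114, 82.3 and 60.8 CPM in DMSO and at 49.0, 68.2 and 57.8 CPM under AZD8186, where the ranges overlapped. The log2 change was −0.44 (SE 0.10, n = 7 pairs, adjusted p = 0.00622, edgeR).

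The TMD8 pair at 6 h stood apart, with a POLR1C ratio of −1.21 and a POLR1B ratio of −0.87 on the log2 scale, and its AZD8186 library held the highest share of ribosomal RNA, 4.35%. The part of that share was not tested. Without this pair POLR1C was still lower in the ABC lines (−0.32, SE 0.066, adjusted p = 0.00327), while the POLR1B change went from −0.25 (adjusted p = 0.055) to −0.15 (adjusted p = 0.104). POLR1B was at 67.5, 82.5, 84.6 and 80.6 CPM in OCI-Ly10 with DMSO and at 67.7, 72.4, 70.5 and 63.5 CPM under AZD8186. In TMD8 it was at 113, 92.4 and 102 CPM against 62.0, 84.2 and 104 CPM, so the ranges overlapped in both ABC lines. DESeq2 called POLR1B lower (−0.25, adjusted p = 0.0398), as did edgeR without the OCI-Ly10 pair at 6 h (adjusted p = 0.0408) or the TMD8 pair at 24 h (0.0339).

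TAF1D in OCI-Ly10 was at 25.9, 24.4, 21.1 and 19.8 CPM in DMSO and at 28.1, 27.6, 35.4 and 29.7 CPM under AZD8186, and in TMD8 at 10.3, 12.8 and 12.2 CPM against 13.1, 15.1 and 11.6 CPM. The groups were apart in OCI-Ly10 and overlapped in TMD8. The ABC change of 0.31 (SE 0.094, adjusted p = 0.0245) rested on the later OCI-Ly10 pairs, since it was 0.23 (adjusted p = 0.109) without the 18 h pair and 0.26 (adjusted p = 0.103) without the 24 h pair. The catalytic subunit POLR1A was at 149, 167, 174 and 162 CPM in OCI-Ly10 with DMSO and at 143, 170, 161 and 167 CPM under AZD8186, and its ABC change was −0.10 (SE 0.054, adjusted p = 0.20). RRN3 was at 32.9 to 34.1 CPM in OCI-Ly10 with DMSO and 31.2 to 34.9 CPM under AZD8186, and its ABC change was 0.017 (SE 0.055, adjusted p = 0.837). Controls and treated libraries overlapped in OCI-Ly10 for both genes.

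The remaining members were not past the test in the ABC lines. POLR1D was at 118 to 126 CPM in OCI-Ly10 with DMSO and 135 to 151 CPM under AZD8186, without overlap, and at 94.5 to 103 CPM against 96.9 to 105 CPM in TMD8, with an ABC change of 0.14 (SE 0.058, adjusted p = 0.0843). UBTF was at 255 to 292 CPM in OCI-Ly10 with DMSO and 267 to 316 CPM under AZD8186, and its ABC change was 0.08 (SE 0.048, adjusted p = 0.244). Within pairs its log2 ratio was above 0 in 7 of 7 ABC pairs (0.014 to 0.11), and that of TAF1B was below 0 in 7 of 7 (−0.30 to −0.050). The share of all genes with 7 of 7 ratios on the same side was not counted, so these counts have no background. The changes of POLR1E (−0.12, adjusted p = 0.242), TAF1B (−0.16, adjusted p = 0.151) and TAF1C (−0.12, adjusted p = 0.243) were not past edgeR's test either.

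The ABC counts of lower and higher members depended on the scale. On log2(TPM + 1), which limma tested, 6 members were lower (POLR1A, POLR1B, POLR1C, POLR1E, TAF1B and TAF1C) and 0 higher. On that scale 4177 of the 10132 genes tested were lower and 550 higher, and the median of all genes was at −0.17. In these libraries ribosomal protein genes held 17.5% to 23.2% of the counts in DMSO and 21.4% to 25.8% under AZD8186, and their part was not tested. Relative to that median POLR1C was at −0.44, POLR1B at −0.25, POLR1A at −0.11 and TAF1D at 0.29, values close to those from the counts.

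Tests within a line used the same libraries as the subtype tests and split the responses further. In K422, 7 members were lower and 2 higher, where 24.0% and 22.9% of all genes were. POLR1B (−0.59, SE 0.053, adjusted p = 0.000293), POLR1A (−0.55) and POLR1C (−0.55) were lowered most, and TAF1D (0.61) and POLR1D (0.52) were raised. DCN, higher in the treated K422 libraries as given above, moved with these changes. HT had 4 members lower, where 18.9% of all genes were, namely POLR1B (−0.43), POLR1C (−0.38), POLR1A (−0.34) and RRN3 (−0.33). The 2 higher members of HT were TAF1D (0.37) and POLR1D (0.19), beside 18.6% of all genes. In OCI-Ly10, POLR1C (−0.39, adjusted p = 0.00111) and POLR1B (−0.19, adjusted p = 0.0492) were lower and TAF1D (0.41) and POLR1D (0.24) higher, where 14.6% and 14.5% of all genes were. Leaving out 1 pair ended the OCI-Ly10 call of POLR1B (12, 18 or 24 h, adjusted p = 0.146 to 0.217), POLR1D (12 or 18 h, 0.0638 and 0.0955) and TAF1D (18 h, 0.0771), that of POLR1D in HT (12 h, 0.102) and that of TAF1C in K422 (each of the 4 pairs, 0.065 to 0.114).

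**Figure D3:**
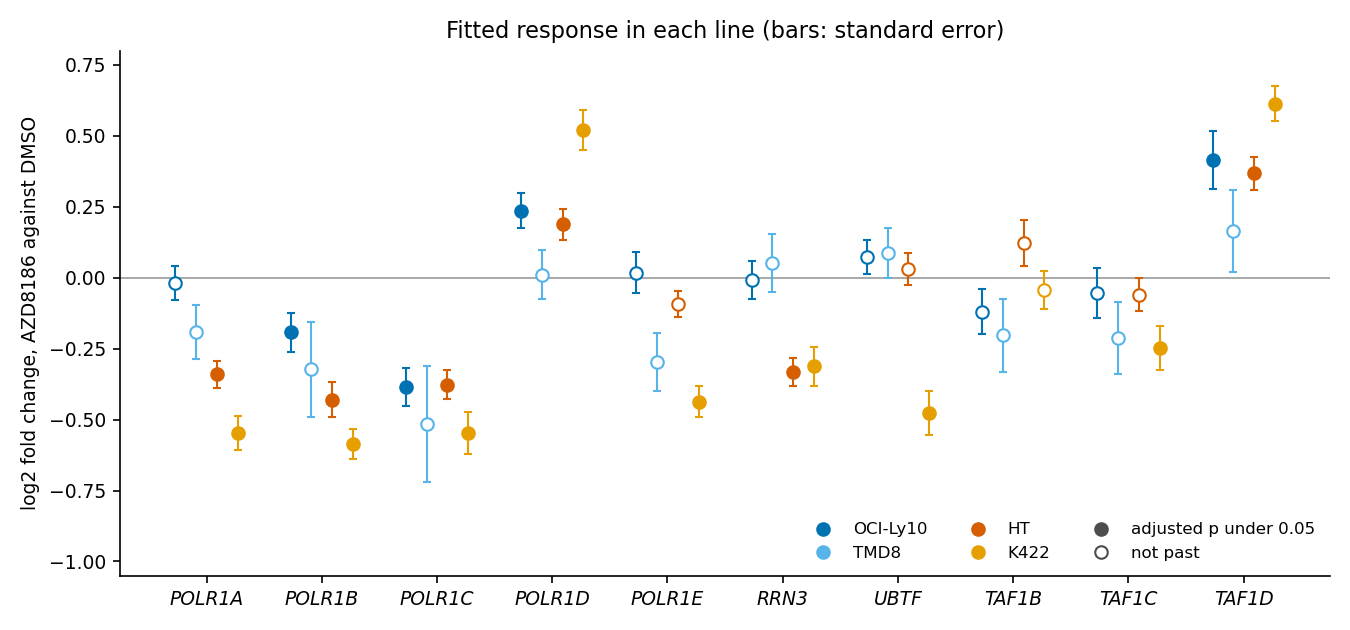
Log2 change under AZD8186 in each of the 4 cell lines for the 10 genes, from edgeR's fit within the line, with bars of 1 SE. Filled points passed an adjusted p under 0.05, 9 in K422, 6 in HT, 4 in OCI-Ly10 and 0 in TMD8.

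TMD8, with 3 pairs, had 0 members past edgeR's test, where 1.23% of all genes were lower and 2.36% higher. An unadjusted p under 0.05 was found for 2 members, and for 2552 of all 11214 genes tested. When the TMD8 response was taken from an edgeR fit over all 30 libraries, POLR1C (−0.51, adjusted p = 0.0191) and POLR1E (−0.29, adjusted p = 0.0109) were called lower. The shares above belong to the fit within TMD8, and that of all genes in the fit over all libraries is not given here. POLR1E in TMD8 was at 115, 117 and 106 CPM in DMSO and at 80.5, 101 and 93.7 CPM under AZD8186, without overlap. Without the 6 h pair the TMD8 change of POLR1C was −0.18 (adjusted p = 0.211). Controls and treated libraries did not overlap for 8 members in K422, 6 in HT, 3 in OCI-Ly10 and 3 in TMD8. The share of all genes without such overlap was not counted, so these counts cannot be set against a background.

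The difference between the responses of the GCB and ABC lines was tested itself, over all 30 libraries with the pair as a block. It was past the test for 5 members, 3 of them more negative in the GCB lines and 2 more positive, where 7.43% and 8.40% of all genes were. RRN3 differed by −0.32 (SE 0.067, adjusted p = 0.00292), POLR1A by −0.32 (SE 0.060, adjusted p = 0.00148) and UBTF by −0.28 (SE 0.067, adjusted p = 0.00793). POLR1D differed by 0.25 (SE 0.067, adjusted p = 0.0153) and TAF1B by 0.22 (SE 0.073, adjusted p = 0.0479). For POLR1D and UBTF the lines did not split by subtype. Within lines POLR1D was at 0.19 in HT and 0.52 in K422, beside 0.24 in OCI-Ly10 and 0.011 in TMD8. UBTF was at 0.03 in HT and −0.48 in K422, beside 0.07 in OCI-Ly10 and 0.09 in TMD8. The TAF1B call was borderline, being lost when any of 13 of the 15 pairs was left out (all but HT at 6 h and TMD8 at 18 h, adjusted p up to 0.145) while the difference stayed at 0.18 to 0.23. For POLR1C the difference was 0.01 (SE 0.13, adjusted p = 1). POLR1B differed by −0.23 (SE 0.11, adjusted p = 0.159), and by −0.36 (adjusted p = 0.00132) without the TMD8 pair at 6 h.

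Within the GCB subtype K422 differed from HT in 3 members, 2 more negative and 1 more positive, where 5.83% and 4.76% of all genes were. UBTF differed by −0.50 (SE 0.091, adjusted p = 0.00245), POLR1E by −0.34 (SE 0.091, adjusted p = 0.0228) and POLR1D by 0.34 (SE 0.091, adjusted p = 0.0257). Leaving out 1 pair ended the POLR1E call for HT at 12 or 24 h and K422 at 12 or 18 h (adjusted p = 0.055 to 0.0706), and the POLR1D call for HT at 6, 18 or 24 h and K422 at 18 or 24 h (0.0557 to 0.0894). Between TMD8 and OCI-Ly10 edgeR called 0 members, where 0.899% of all genes were called in either direction, and limma-voom called 0. By edgeR 2 members had an unadjusted p under 0.05, as had 1487 of all 12910 genes tested.

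Responses at 18 to 24 h did not differ from those at 6 to 12 h by edgeR's test in either subtype, with 0 members called, where 0.0% of all genes were. No member had an unadjusted p under 0.05 and limma-voom called 0. Of all genes, 1356 of 11419 in the ABC lines and 759 of 10965 in the GCB lines had such a p by edgeR. POLR1C also moved with time in culture alone. In DMSO it was lower at 24 h than at 6 h by a log2 difference of −0.42 (SE 0.094, adjusted p = 0.018), where 3.73% of all genes were lower and 2.37% higher. The drop of TMD8 from 114 to 60.8 CPM was the largest, and the call was lost without TMD8 (−0.23, adjusted p = 0.0912), without OCI-Ly10 (adjusted p = 0.10) or without HT (adjusted p = 0.057). UBTF was at −0.19 (SE 0.060, adjusted p = 0.0633) in the same comparison and was called without TMD8 (−0.24, adjusted p = 0.0488).

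TAF1D also differed under AZD8186 in its effective length in the GCB lines. The deposited effective length is a mean over a gene's transcripts weighted by their abundance. It was looked at after its values had been seen, and it is given with no test. It also varied between libraries for POLR1A, a gene with 1 transcript. In K422 POLR1A was at 12487 to 12501 bases in DMSO and 12486 to 12493 under AZD8186. Whether the TAF1D transcripts themselves differed was not tested. The files list 3 transcripts of TAF1D. In HT its effective length was 1309 to 1336 bases in DMSO and 1265 to 1276 bases under AZD8186. In K422 it was 1232 to 1279 bases against 1217 to 1228 bases. The treated libraries were shorter in 8 of the 8 GCB pairs with no overlap within a line. Of 10965 genes tested in the GCB lines, 12 (0.109%) were shorter without overlap in both lines and 7 (0.0638%) longer. In OCI-Ly10 the length was shorter in 3 of 4 pairs and in TMD8 in 2 of 3, with overlap in both. TAF1D shares exonic bases with CEP295, C11orf54 and MED17 on the opposite strand and with 7 small nucleolar RNAs on its own strand, and whether counting used strand is not given in the sources used here.

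**Figure D4:**
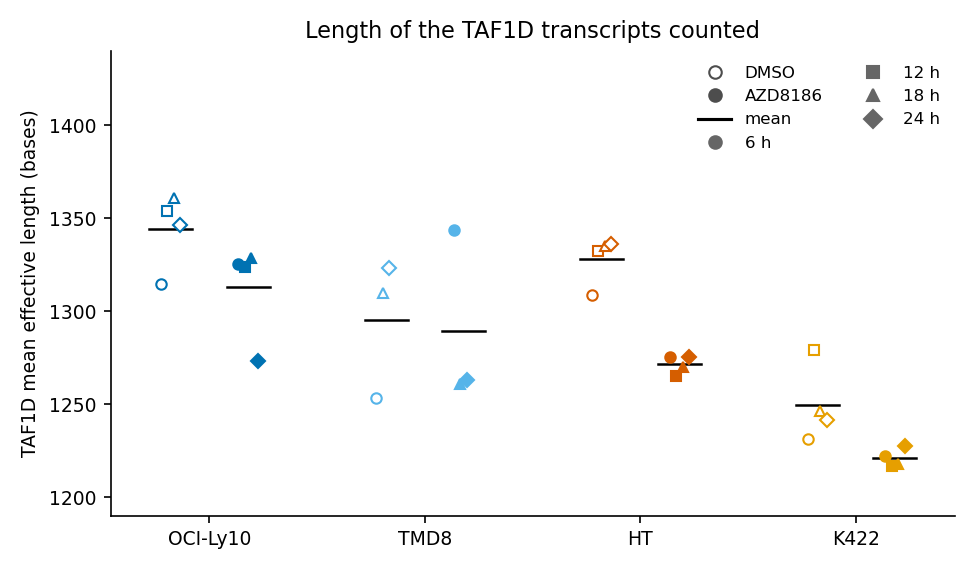
Effective length of TAF1D (bases) in each library of the 4 cell lines, with open points for DMSO, filled points for AZD8186 and a bar at each mean. The AZD8186 library is the shorter in all 8 GCB pairs and the longer in the TMD8 pair at 6 h.

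Other genes of the pathway were counted from lists. CD3EAP, TWISTNB and ZNRD1 encode the remaining subunits found in RNA polymerase I alone. In the GCB lines, where 23.5% of all genes were lower and 25.9% higher, 3 of these 3 fell, with log2 changes of −1.15 for CD3EAP (SE 0.17, adjusted p = 8.38e-05), −0.32 for TWISTNB (adjusted p = 0.000151) and −0.18 for ZNRD1 (adjusted p = 0.0144). CD3EAP, the partner of POLR1E, thus had a larger change than any of the 10 members. The 2 GCB lines were unlike, as the lowest change among these 3 subunits was −1.76 in K422 and −0.62 in HT. Of the 5 subunits shared by all 3 nuclear polymerases, 3 fell in the GCB lines (POLR2F −0.37, POLR2E −0.32 and POLR2L −0.16). Of the other SL1 factors TAF1A fell (−0.35, adjusted p = 0.0103), and TBP (−0.15, adjusted p = 0.0577) and TAF12 (−0.04, adjusted p = 0.627) were not past the test.

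Of 11 tested regulators of ribosomal DNA transcription, 6 fell in the GCB lines, led by MYBBP1A (−0.75), NOLC1 (−0.52) and TCOF1 (−0.42), nucleolar proteins of ribosome production, and BAZ2A, a silencer of ribosomal DNA, was the 1 that rose (0.21, adjusted p = 0.0134, named after its value was seen). RNA polymerase III machinery had 14 of 22 lower and 2 higher, beside the same 23.5% and 25.9% of all genes. POLR3G (−0.75) and POLR3K (−0.62) fell and MAF1, the repressor of RNA polymerase III, rose (0.40, adjusted p = 6.56e-06). RNA polymerase II subunits had 4 of 7 lower, among them POLR2I (−0.29), POLR2D (−0.26) and POLR2C (−0.25), and 0 higher, with a median of −0.19. MYC, known to drive many of these genes, was lower too (−0.25, SE 0.038, adjusted p = 0.000104, edgeR). Its part in the other changes was not tested.

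In the ABC lines, where 13.8% of all genes were lower and 15.3% higher, CD3EAP (−0.39, adjusted p = 0.0186) and TWISTNB (−0.24, adjusted p = 0.0165) fell and ZNRD1 was at −0.05 (adjusted p = 0.706). Of the shared subunits POLR2K (−0.23) and POLR2H (−0.21) fell, and POLR2F was at −0.17 (adjusted p = 0.0511). Of the 11 regulators 4 fell, among them NOLC1 (−0.33), MYBBP1A (−0.33) and TCOF1 (−0.28). RNA polymerase III machinery had 6 of 22 lower, with POLR3G at −0.63 and GTF3C2 at −0.24, and 2 higher, with MAF1 at 0.18. RNA polymerase II subunits had 0 of 7 past edgeR's test, with 2 at an unadjusted p under 0.05 (POLR2C −0.15, POLR2D −0.14 and POLR2G 0.09 had the smallest p). The other SL1 factors had 0 of 3, with 1 at an unadjusted p under 0.05 (TBP −0.19, TAF1A −0.23, TAF12 0.15). Of all 11419 genes tested in the ABC lines, 4619 had an unadjusted p under 0.05. MYC was at −0.13 (SE 0.14, adjusted p = 0.502). The MYC response did not split by subtype, as the GCB minus ABC difference was −0.073 and not past edgeR's test. Within lines MYC was at −0.28 in HT, −0.23 in K422, −0.33 in TMD8 (not past the test) and −0.00098 in OCI-Ly10.

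**Figure D5:**
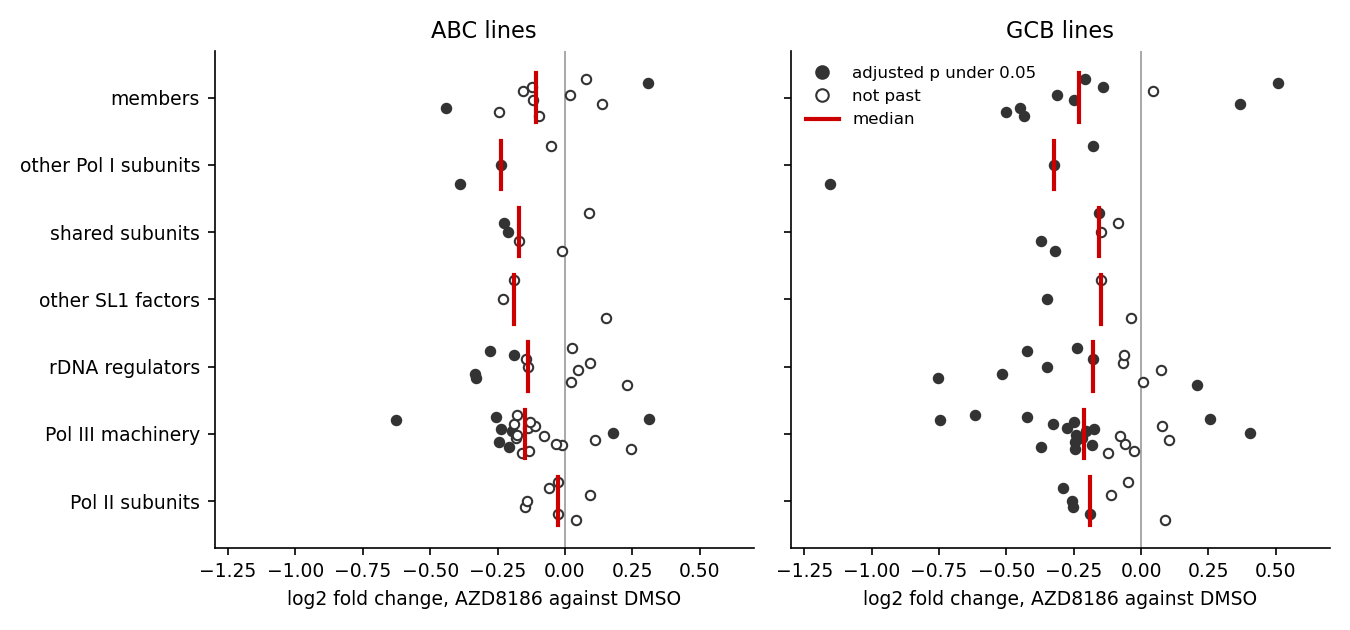
Log2 change under AZD8186 of the members of each gene list in the ABC and the GCB lines, with 1 point per gene and a bar at the list's median. The medians of the 10 members are −0.11 in ABC and −0.23 in GCB lines, and CD3EAP is the lowest point in the GCB lines.

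Across the 15 pairs the log2 ratios of the members were compared with each other by Pearson's r, as a description over pairs that share lines and times. POLR1A and RRN3 were the most alike (r = 0.79), followed by POLR1D and TAF1D (0.77) and POLR1B and POLR1C (0.74). POLR1D and UBTF were the most opposed (−0.81), then RRN3 and TAF1B (−0.71). Of the 9031 genes searched, members aside, the ratios most like the mean of POLR1A to POLR1E were those of CAMKK2 (0.945), KIAA0100 (0.935), LTA (0.923), DDX31 (0.922) and RRP7A (0.902). That mean holds POLR1D, whose r with the other subunits in it ran from −0.55 (POLR1A) to −0.063 (POLR1C). For single members the closest gene was ICE2 for POLR1A (0.959), HK2 for POLR1B (0.940), SINHCAF for POLR1C (0.902), SLC8B1 for POLR1D (0.956), FASN for POLR1E (0.903), DR1 for RRN3 (0.923), FADS1 for UBTF (0.951), TRPV2 for TAF1B (0.934), AIMP2 for TAF1C (0.824) and IGBP1 for TAF1D (0.937).

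The product of RNA polymerase I could be read only in part. The entries of the ribosomal precursor RNA, 5 near-identical copies whose reads cannot be told apart, summed to 34.1 to 52.5 TPM in HT with DMSO and 36.3 to 54.6 TPM under AZD8186. In K422 the sums were 17.8 to 36.2 and 19.7 to 29 TPM, in OCI-Ly10 56.2 to 85.9 and 39.9 to 66.5 TPM, and in TMD8 42.6 to 61.6 and 30.8 to 120 TPM. The ranges of treated and control libraries overlapped in every line, and since the share of ribosomal RNA left in a library depends on how it was prepared, no test was made.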

How the data were processed

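According to the study's methods, RNA was extracted with the NucleoSpin RNA Plus kit, and reads were aligned with HISAT2 and summed per gene with RSEM. The submitters' processing notes name GRCh38.p12. Tool versions, library preparation and strandedness are not stated in these sources. The authors deposited RSEM's expected counts, which carry no normalization. They also deposited TPM, the same counts scaled by effective length and library, and FPKM, which were not used.

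Groups, pairs, times and treatments came from the sample labels. After rounding, filterByExpr and TMM normalization, the expected counts of all genes were fitted in edgeR 4.0.16 under R 4.3.3, using its quasi-likelihood F test and Benjamini-Hochberg adjustment, with calls at an adjusted p under 0.05. Terms were cell line and time in the subtype tests, time within a line and in the DMSO comparison of lines, cell line for time in DMSO, and the pair as a block where responses were compared. Late against early responses were treatment terms by 18 to 24 h or 6 to 12 h. For the log2 ratio of each pair, CPM with a prior count of 2 were used. As a check of the pairing, deviations from the line and treatment means were correlated, and 14 of 15 AZD8186 libraries matched their own control best (r from −0.020 to 0.29).

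The members and the gene lists were chosen with earlier results of these data known. All members are named, with the 3 smallest p of each list per subtype, MYC, and the genes of largest Pearson r among those of at least 5 CPM. Alternatives were DESeq2 1.42.0 and its size factors, limma 3.58.1 (voom, and log2(TPM + 1) or log2(TPM + 0.1) for genes of at least 1 TPM), other filters, terms and thresholds, and leaving out libraries. The fits were tested on simulated counts. Gene overlaps were read from GENCODE 29 (GRCh38). Tables and plots were made in Python 3.11.15 with numpy 2.4.6, pandas 2.3.3 and matplotlib 3.10.9.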

Additional observations from a re-analysis of the deposited data

Results flagged for a closer look

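Of 110 groups of 4 to 8 values checked, 10 had a value far from the others, and chance gives about 1 in 20 groups. Among the log2 ratios of AZD8186 to DMSO within a line, these were POLR1A in HT at 12 h (−0.43), POLR1C in OCI-Ly10 at 18 h (−0.58), POLR1E in HT at 12 h (−0.0090), POLR1E in K422 at 24 h (−0.37) and TAF1C in HT at 18 h (0.090). Among the 7 ABC pairs, the TMD8 pair at 6 h was lowest for POLR1A (−0.35) and POLR1B (−0.87). Among levels, POLR1E in OCI-Ly10 with DMSO at 6 h (26.5 TPM) and TAF1D in HT with DMSO at 6 h (19.5 TPM) were below their groups, and TAF1C in OCI-Ly10 with AZD8186 at 12 h (4.91 TPM) was above.

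Responses that differed between groups by a test of the difference were those of POLR1A (−0.32), RRN3 (−0.32), UBTF (−0.28), POLR1D (0.25) and TAF1B (0.22) between GCB and ABC lines, as log2 GCB minus ABC. For UBTF and POLR1D the lines did not split by subtype, as given above. Over the alternatives tried, the adjusted p of edgeR and the other tools ranged from 0.000418 to 0.0059 for POLR1A, 0.00104 to 0.00823 for RRN3, 0.00416 to 0.0211 for UBTF and 0.0062 to 0.0401 for POLR1D. Between K422 and HT the responses that differed were those of UBTF (−0.50), POLR1E (−0.34) and POLR1D (0.34).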

How the results depend on the processing

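In the ABC lines 1 member was lower and 1 higher by edgeR. DESeq2 gave 2 lower, log2(TPM + 1) and log2(TPM + 0.1) each gave 6 lower and 0 higher, an adjusted p under 0.01 gave 0 higher, and leaving out each pair gave 1 to 2 lower and 0 to 1 higher. Of all 10132 genes tested, 4177 were lower and 550 higher on log2(TPM + 1), and 4160 and 544 on log2(TPM + 0.1). Of all 11419 genes, DESeq2 called 1738 lower, and edgeR at an adjusted p under 0.01 called 911 higher. Without each ABC pair 970 to 1893 of all genes were lower and 1124 to 1965 higher. In the GCB lines the member counts stayed at 5 to 7 lower and 2 higher without each pair, where 2122 to 2571 of all genes were lower and 2318 to 2774 higher. With all 30 libraries in 1 fit and the pair as a replicate block, OCI-Ly10 had 1 lower member in place of 2, TMD8 2 in place of 0, and POLR1C in HT was not called (adjusted p = 0.0521). The share of all genes called for a line in that fit is not given here. Without each pair OCI-Ly10 had 1 to 2 lower and 0 to 2 higher, HT 1 to 2 higher, and the K422 minus HT difference 1 to 3 called. The DMSO comparison of K422 with OCI-Ly10 gave 7 called, 4 with DESeq2 size factors and 4 to 7 without each library. The comparison of 24 h with 6 h in DMSO gave 0 to 1 without each line. For these alternatives of the line, difference and DMSO tests the share of all genes called is not given here either. In the subtype tests the block changed the calls of UBTF and TAF1C in the GCB lines, as given above, and no other member's call. On log2(TPM + 1) the DMSO difference turned positive for POLR1C (0.20) and POLR1D (0.091) in HT minus OCI-Ly10, POLR1C (0.21) and POLR1D (0.26) in K422 minus OCI-Ly10, POLR1D (0.27) in HT minus TMD8, and POLR1A (0.35), POLR1B (0.21), POLR1D (0.43), RRN3 (0.0084) and TAF1C (0.28) in K422 minus TMD8. It also turned positive for TAF1D in HT minus OCI-Ly10 (0.18) and POLR1C in K422 minus HT (0.011), called on neither scale. The median of all genes moved on that scale too, but the cause was not tested. Of 2560 values of single members under these alternatives, 2416 neither gained nor lost a call nor reversed, although 73 of these, uncalled, changed sign. With 1 library per line, treatment and time, 3 or 4 pairs a line limit what the tests within a line can show.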
